A study of Mus musculus with 20 samples.

Results

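Mono_1, named by the authors as their first monocyte cluster, held 6984 of the 113579 cells of mouse kidney in an annotation of 18 single-cell RNA-seq libraries. Its members were the cells given that cluster name, and each cell was assigned to a library by the shared start of its cell name. Mono_1 was the 7th largest of 18 clusters, made up 6.15% of all cells and was found in every library. Of its cells 541 (7.75%) came from control, 2940 (42.1%) from IRI short and 3503 (50.2%) from IRI long.

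The kidneys came from male C57BL/6 mice aged 10 to 12 weeks. Renal ischemia-reperfusion injury (IRI) was made by clamping both renal pedicles for 23 min (IRI short) or 30 min (IRI long), and kidneys were taken 1, 3 or 14 d later. Control is represented by 6 libraries, and each ischemia time has 2 at each day. A further library came from IRI long with VX765 at 100 mg/kg and a further library from IRI long with Liproxstatin at 10 mg/kg, both at 14 d, given 30 min before ischemia and then every 24 h. VX765 inhibits caspase-1, the protease that drives inflammasome-dependent pyroptosis, whereas Liproxstatin acts on ferroptosis by stopping the peroxidation of lipids. The labels do not say whether the IRI long libraries at 14 d received vehicle, and no library is labelled as vehicle. By the study's description the inhibitors were given in a second set of experiments. Their libraries were then joined to the earlier IRI short and IRI long libraries. Libraries are called here by the start of their cell names (Scl and norm1 to norm5 for control, IRF with a number for IRI), so that IRF names a library and not an interferon regulatory factor.

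Monocytes are leukocytes that form in the bone marrow, circulate in blood and enter injured tissue, where they can become macrophages or dendritic cells. In the mouse, classical monocytes carry the surface antigen Ly6C and are recruited early to the kidney after ischemia, while another set of monocytes with little Ly6C patrols the vessels. Ly6c2 encodes a Ly6C antigen and Plac8 a small cysteine-rich protein that is abundant in monocytes and other myeloid cells.

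The name of the cluster could not be checked against Ly6c2 and Plac8, whose levels were not analysed here. For each cell the files used give a cluster name, a treatment group and 2 coordinates of the UMAP, a 2-dimensional map that places cells with like transcriptomes near each other. The cell names themselves disagreed: in a second annotation of 20 libraries with 136794 cells, 94.1% of the same Mono_1 cells carried the name Fibro. The cells are therefore called Mono_1 throughout, by their rule, and Fibro where the second annotation is meant.

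Libraries held 2064 to 14320 cells, which set the counting error of each fraction. The number of Mono_1 cells per library ran from 24 to 256 in control, 167 to 807 in IRI short and 430 to 730 in IRI long. Barcodes split the libraries into 2 sets that no label names: the control libraries Scl and norm1 to norm4 shared 0.977 to 1.66 barcodes per 1000000 pairs of cells with one another, while norm5 and all IRI libraries shared 0.0746 to 0.529 among themselves and no pair across the sets shared more than 0.123. Ischemia and barcode set can be told apart only through norm5. Of 6980 distinct Mono_1 barcodes, 4 were found in Mono_1 of more than 1 library.

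Mono_1 took a larger fraction of kidney cells after either ischemia time, at every day sampled. The mean was 1.26% ± 0.508 of all cells for control, 7.29% ± 1.75 for IRI short and 11.5% ± 5.05 for IRI long (SD, n = 6 libraries each). A fraction can also rise when other cells are lost, and with no cell number per kidney more Mono_1 cells and fewer other cells cannot be told apart.

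Among the control libraries Mono_1 made up 0.592% of cells at the lowest (norm4), 1.23% at the median and 1.86% at the highest (norm5). At 1 d after short ischemia the fraction was 8.51% in IRF2. At 3 d it was 7.56% in IRF11 and 5.63% in IRF3. At 14 d IRF10 held 4.63% and IRF8 8.54%, so that IRI short ran from 4.63 to 8.83% without touching the control range. After long ischemia the fraction was 12.0% in IRF1 and 7.63% in IRF5 at 1 d. At 3 d IRF4 held 12.1% and IRF7 20.8%, the highest value of all libraries. At 14 d the fraction was 7.08% in IRF12 and 9.19% in IRF9. All 12 IRI libraries were above all 6 control libraries, and 4 of the 6 IRI long libraries were above the highest IRI short library. Counting error was small beside these gaps: the exact 95% binomial (Clopper-Pearson) interval, which covers counting error only, ran from 0.379 to 0.879% in norm4 and from 19.1 to 22.7% in IRF7.

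**Figure D1:**
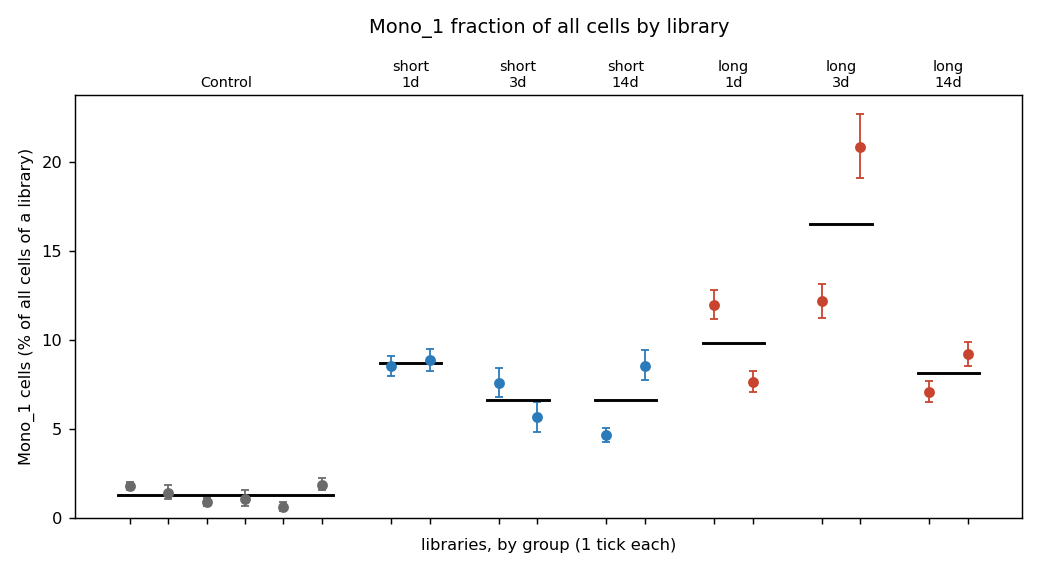
Mono_1 cells as percent of all cells in each of the 18 libraries, by treatment group and day. Points are libraries, error bars are exact 95% binomial intervals and black lines are group means. All IRI libraries lie between 4.63 and 20.8%, above the control libraries at 0.592 to 1.86%.

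Ordered by group mean, IRI long at 3 d came first with 16.5% ± 6.14 (SD, n = 2), followed by IRI long at 1 d with 9.80% ± 3.06 and IRI short at 1 d with 8.67% ± 0.227. IRI long at 14 d followed with 8.13% ± 1.49, and IRI short at 3 d (6.60% ± 1.37) and at 14 d (6.59% ± 2.76) came last of the IRI groups. The libraries of IRI long at 1 d spanned those of IRI short at 1 d, and those of IRI short at 14 d spanned those at 3 d, so the order of these neighbours was within the spread of 2 libraries.

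Against control, the difference passed the test for both ischemia times. In a limma fit over 18 clusters on the logit scale, the log odds of a cell being in the cluster, Mono_1 was higher by 1.86 (SE 0.25) in IRI short, with an adjusted p of 2.2e-06. That is an odds ratio of 6.40, with a 95% interval of 3.79 to 10.8. In IRI long it was higher by 2.32 (SE 0.25) with an adjusted p of 1.1e-07, an odds ratio of 10.1 (6.00 to 17.1). In this fit 66.7% of the clusters passed the threshold of 0.05 in IRI short and 83.3% in IRI long, with 50% higher in each, so that passing it did not set Mono_1 apart. Mono_1 ranked 5th of 18 clusters by its estimate in both comparisons. Groups that did not overlap, with every IRI library above every control library, were likewise found for 44.4% of clusters in IRI short and 27.8% in IRI long.

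The same differences in percent were 6.02 percentage points for IRI short and 10.2 for IRI long (two-sided exact permutation test, p = 0.00216 each, adjusted over 3 comparisons p = 0.00325). This p is the smallest that 6 against 6 libraries can give. Each day alone also passed the test in limma. The logit differences from control were 2.07, 1.77 and 1.73 at 1, 3 and 14 d after short ischemia (adjusted p 4.9e-05, 0.00023 and 0.00049). After long ischemia they were 2.18, 2.77 and 1.99 (adjusted p 2.6e-05, 1.0e-06 and 5.6e-05). Of all clusters 55.6, 72.2 and 55.6% passed at these days in IRI short and 61.1, 88.9 and 72.2% in IRI long, and 38.9, 55.6 and 38.9% passed with a higher fraction in IRI short and 44.4, 61.1 and 33.3% in IRI long.

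The control library norm5, which shares its barcode set with the IRI libraries, had the highest Mono_1 fraction of the controls. When limma also had a term for barcode set, only norm5 was left to set the control level against the IRI libraries. The estimates then fell to 1.39 for IRI short, 1.85 for IRI long and 1.27 for IRI short at 14 d. On the centred log-ratio scale, which relates a cluster to the mean of all clusters, the estimates were 0.69 for IRI short and 1.27 for IRI long, and the differences at 3 and 14 d of IRI short did not pass the threshold.

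IRI long and IRI short differed less than either did from control. Averaged over days, the Mono_1 fraction was 4.19 percentage points higher after long ischemia (exact permutation test that kept the days, two-sided p = 0.0741). In limma the logit difference was 0.46 (SE 0.25, 95% interval -0.06 to 0.98, adjusted p = 0.22), and 27.8% of clusters passed. At 1 d the logit difference was 0.11 with an adjusted p of 0.95 (5.56% of clusters passed). At 3 d it was 1.00, with a 95% interval of 0.10 to 1.91 before adjustment and an adjusted p of 0.23 (0% of clusters passed, and Mono_1 had the highest estimate of the 18). At 14 d it was 0.26 with an adjusted p of 0.71 (33.3% passed). The outcome depended on the scale: on the arcsine square root scale, which gives large fractions more weight, the difference passed over all days (adjusted p = 0.019) and at 3 d (adjusted p = 0.020). In percent, leaving out IRF5 or IRF8 took the adjusted p of the exact permutation test over days to 0.028 and 0.046. Without IRF7 the difference was 2.74 percentage points, the lowest of these fits. The highest adjusted p with any 1 library left out was 0.213.

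No change between days passed the test on the logit scale. From 1 to 3 d the mean fraction went from 8.67 to 6.60% in IRI short, a logit difference of -0.31 (SE 0.43, adjusted p = 0.77, 0% of clusters passed). In IRI long it went from 9.80 to 16.5%, a logit difference of 0.59 (SE 0.43, adjusted p = 0.38, 5.56% passed), which passed on the arcsine square root scale (adjusted p = 0.047). Without IRF7 the logit difference in IRI long was 0.27 and without IRF4 0.91, and in IRI short it was -0.46 without IRF11 and -0.15 without IRF3. From the mean of 1 and 3 d to 14 d the logit difference was -0.19 in IRI short (SE 0.37, adjusted p = 0.75, 11.1% passed) and -0.48 in IRI long (SE 0.37, adjusted p = 0.35, 22.2% passed). The difference between these late changes was -0.29 (SE 0.53, adjusted p = 0.73, 5.56% passed). At 14 d Mono_1 was thus still above control after both ischemia times, by 1.73 and 1.99 on the logit scale.

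**Figure D2:**
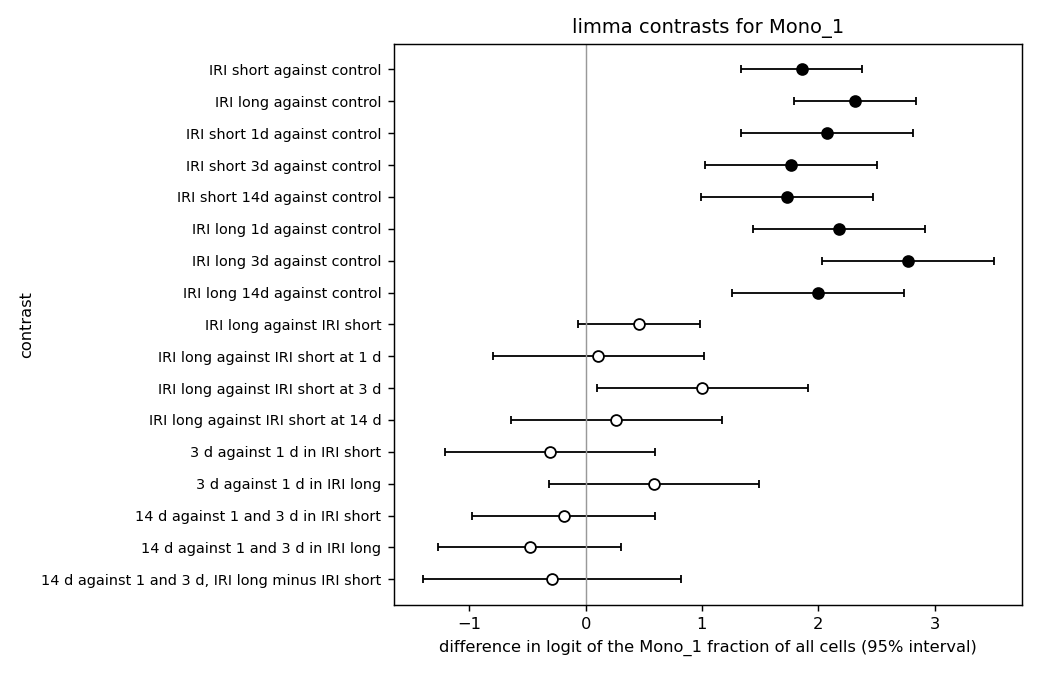
Differences in the logit of the Mono_1 fraction of all cells for 17 contrasts of the limma fit, with 95% intervals before adjustment. Filled points have an adjusted p under 0.05. The 8 contrasts with control are filled and lie between 1.73 and 2.77, and the 9 contrasts among IRI groups are open.

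Relative to the other immune cells, no difference in Mono_1 between groups passed the test. Immune cells were taken as 8 clusters: Mono_1, Mono_2, Macro (macrophages), Granul_1 and Granul_2 (granulocytes), T cell_1, T cell_2 and B cell. Mono_1 made up 13.9% ± 8.65 of immune cells for control, 15.5% ± 5.48 for IRI short and 17.5% ± 7.30 for IRI long (SD, n = 6). Control libraries ran from 4.17% (norm4) over a median of 12.4% to 28.7% (Scl). IRI short ran from 10.6% (IRF3) over 13.5% to 23.3%, and IRI long from 8.79% (IRF12) over 17.6% to 29.7% (IRF7). The control range covered all IRI libraries but IRF7. The differences from control were 1.57 percentage points for IRI short (exact permutation test, p = 0.708) and 3.56 for IRI long (p = 0.452). Leaving out 1 library moved the latter to between 1.11 (without IRF7) and 6.51 (without Scl). IRI long minus IRI short was 1.99 percentage points (exact permutation test with days kept, p = 0.685). On the logit scale the difference per immune cell was 0.24 (SE 0.33) for IRI short and 0.36 (SE 0.33) for IRI long in limma.

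By day, the immune fraction was higher in all 4 libraries at 1 d than in the 4 libraries at 14 d. At 1 d Mono_1 made up 21.2 and 23.3% of immune cells in IRI short and 19.8 and 18.3% in IRI long. At 3 d it made up 12.1 and 10.6% in IRI short, where the mean at 3 d was below that at 14 d, and 16.8 and 29.7% in IRI long. At 14 d it made up 11.0 and 14.9% in IRI short and 8.79 and 11.6% in IRI long, below every 1 d library. These day values are a description, since the days were not compared on this scale. In rank, Mono_1 was the 2nd largest immune cluster in all 4 libraries at 1 d. It ranked 4th or 5th in the 4 libraries of IRI short at 3 and 14 d, 1st or 3rd in IRI long at 3 d and 4th in IRI long at 14 d. In control it ranked 1st in Scl, 3rd in norm5 and 4th in the other 4 libraries.

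Among myeloid cells, Mono_1 made up a smaller share after ischemia. Of the 5 myeloid clusters it made up 60.0% ± 14.2 for control, 22.0% ± 4.88 for IRI short and 21.7% ± 9.17 for IRI long (SD, n = 6). The lowest control library was at 45.5% and the highest IRI library at 37.3% (IRF7), so control and IRI did not overlap. Both differences, -38.0 and -38.4 percentage points, had p = 0.00216 (exact permutation test, adjusted p = 0.00649). Granul_1, the larger granulocyte cluster, went from a mean of 0.140% of all cells in control to 10.1% in IRI short and 17.8% in IRI long. The logit differences of Granul_1 from control were 4.96 and 5.61 (limma, adjusted p 2.6e-08 and 3.8e-09), against 1.86 and 2.32 for Mono_1 in the same fit. Those of Granul_2 were 5.31 and 6.49 (limma, adjusted p 3.0e-09 and 1.0e-10). At 14 d of IRI long Granul_2 made up 28.9% of all cells in IRF12 and 22.9% in IRF9.

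Of monocytes and macrophages, Mono_1 made up a smaller share after short ischemia. With Mono_1, Mono_2 and Macro counted together, Mono_1 made up 65.9% ± 14.8 for control, 39.5% ± 10.5 for IRI short and 50.8% ± 7.91 for IRI long (SD, n = 6). Control ran from 45.5% (norm1) over a median of 64.0% to 87.4% (Scl). IRI short ran from 29.5% over 36.0% to 52.5%, and IRI long from 43.2% over 49.1% to 62.1%. IRI short overlapped control in 2 of 6 libraries and IRI long in 4 of 6.

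The difference from control was -26.3 percentage points for IRI short (exact permutation test, p = 0.00866, adjusted over 6 comparisons p = 0.0278). For IRI long it was -15.1 (exact permutation test, p = 0.0455, adjusted p = 0.0909), which does not pass after adjustment. IRI long was 11.3 percentage points above IRI short within days (exact permutation test, p = 0.00926, the smallest that this design allows, adjusted p = 0.0278). With Mono_1 and Macro alone neither call held, at -24.8 percentage points for IRI short (exact permutation test, adjusted p = 0.0909) and 10.3 for IRI long minus IRI short (adjusted p = 0.111), and the latter was also lost with days ignored (adjusted p = 0.126). Both calls were sensitive to single libraries: leaving out any of IRF1, IRF2, IRF3, IRF9 or IRF12 raised their adjusted p to between 0.0519 and 0.111, while the differences stayed within -28.8 to -24.3 and 9.69 to 11.6 percentage points. IRF1, IRF9 and IRF12 are IRI long libraries. Without them the IRI short difference and its p were unchanged, and only the adjustment moved. Without norm1, the control library with the highest fraction of macrophages, the difference for IRI long was -19.2 with an adjusted p of 0.0216.

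The ratio of Mono_1 to Macro cells is given by day as a description. At 1 d it was 1.20 and 1.37 in IRI short and 1.68 and 1.12 in IRI long, with more Mono_1 than Macro cells in each of the 4 libraries. At 3 d it was 0.498 and 0.424 in IRI short and 0.795 and 1.46 in IRI long. At 14 d all 4 libraries held fewer Mono_1 than Macro cells, at 0.457 and 0.664 in IRI short and 0.768 and 0.845 in IRI long. Macro itself rose against control, from a mean of 0.709% of all cells to 10.8% in IRI short and 10.6% in IRI long, by 3.00 and 2.98 on the logit scale (limma, adjusted p 2.6e-08 and 2.9e-08). The ratio was above 1 in 5 of 6 control libraries, from 0.833 (norm1) to 6.92 (Scl).

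Mono_2, the other cluster named for monocytes, was small and absent from control. It held 320 cells, 0 in the 6 control libraries and 2 to 134 in each IRI library. Its fraction was 1.11% of all cells in IRF7 at 3 d of IRI long, and 0.0641 to 0.111% at 14 d. Against control both ischemia times passed the limma test (adjusted p 3.6e-08 and 4.9e-07). Mono_1, in contrast, was present in all control libraries.

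**Figure D3:**
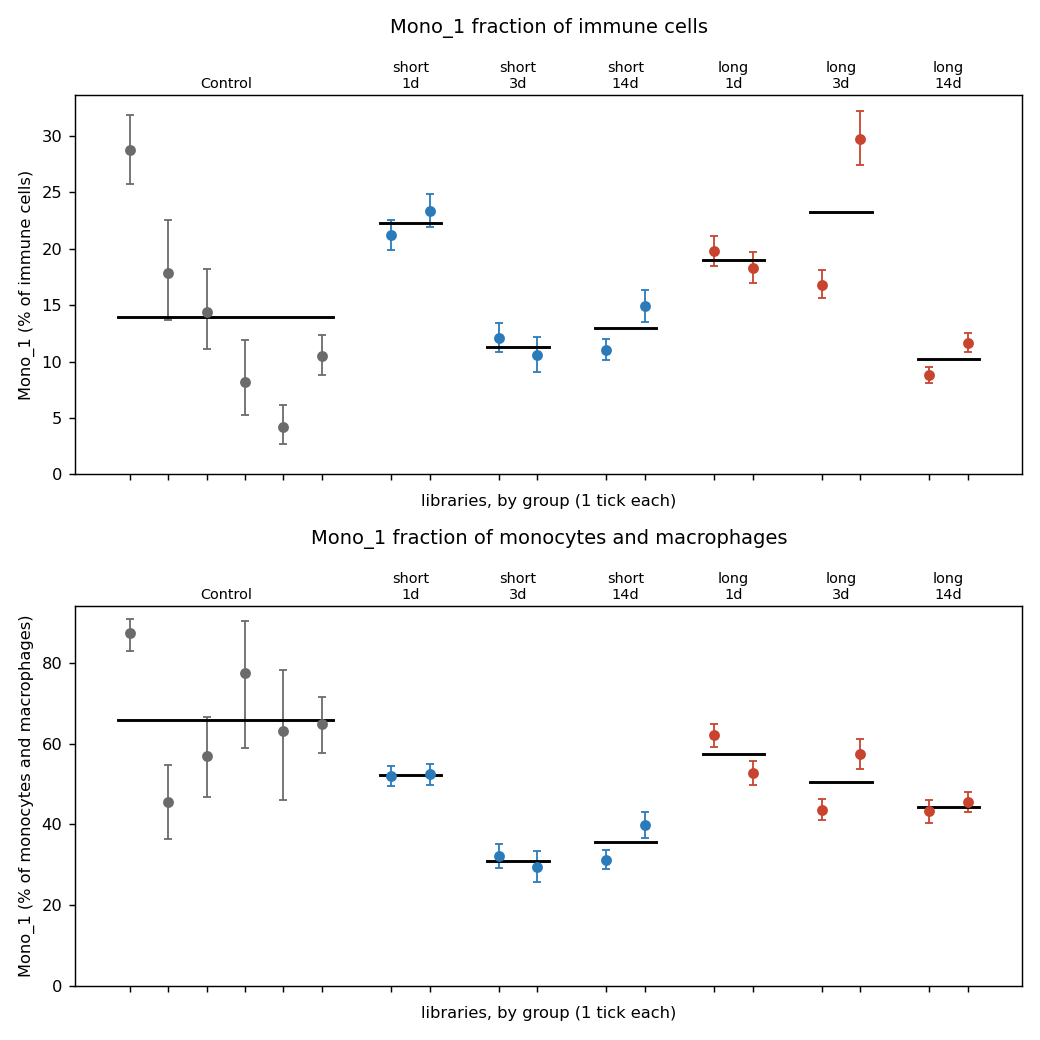
Mono_1 as percent of immune cells (top) and of Mono_1, Mono_2 and Macro cells together (bottom) in each of the 18 libraries. Points are libraries, error bars are exact 95% binomial intervals and black lines are group means. In the top plot all IRI libraries but IRF7, at 29.7%, lie within the control range of 4.17 to 28.7%. In the bottom plot IRI short at 3 and 14 d lies lowest, at 29.5 to 39.8%.

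The cells of Mono_1 stayed together when the cells were annotated a second time, under another name. Of 6984 Mono_1 cells, 6574 (94.1%) were named Fibro and 213 (3.05%) Macro, and the other 197 cells were spread over 15 clusters. Conversely, of the Fibro cells in these 18 libraries 93.1% came from Mono_1, 3.75% from Mono_2 and 1.22% from T cell_2. The name Fibro was given to 82.8% of Mono_2 cells but to none of the 486 cells of Myofib, the myofibroblast cluster of the first annotation, a cluster named here after its values were seen. By these names, Fibro in the second annotation holds the cells that the first annotation names monocytes.

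Per library, the share of Mono_1 cells named Fibro was 86.3% ± 9.33 for control, 92.7% ± 3.58 for IRI short and 94.5% ± 1.97 for IRI long (SD, n = 6). In control it ran from 75.0% (norm3) over a median of 83.9% to 99.6% (Scl), and the control range covered all IRI libraries, which lay between 87.4 and 98.0%. Neither the difference of 6.41 percentage points for IRI short (exact permutation test, p = 0.149) nor that of 8.21 for IRI long (p = 0.0584) passed, nor did IRI long minus IRI short at 1.80 (p = 0.231). Without Scl both differences from control passed, at 9.08 (adjusted p = 0.0455) and 10.9 (adjusted p = 0.0390). The 2 control libraries with the most Mono_1 cells, Scl with 256 and norm5 with 124, had the highest shares of the controls at 99.6 and 95.2%. The other 4 held 24 to 58 Mono_1 cells and had shares of 75.0 to 84.5%. The share named Macro was highest at 3 d of IRI short, at 11.3% in IRF11 and 5.99% in IRF3, against 0 to 4.21% in the other libraries.

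Counted as Fibro, the fraction of all cells was likewise higher after both ischemia times. It was 1.24% ± 0.559 for control, 7.50% ± 2.00 for IRI short and 11.4% ± 5.17 for IRI long (SD, n = 6). In a limma fit over 19 clusters the logit difference from control was 1.91 (SE 0.24, adjusted p = 2.6e-06) for IRI short and 2.33 (SE 0.24, adjusted p = 1.8e-07) for IRI long. In that fit 63.2 and 73.7% of clusters passed. IRI long minus IRI short was 0.42 (SE 0.24, adjusted p = 0.21, 26.3% passed).

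The libraries from inhibitor-treated mice carry only the second annotation, so Fibro stands in for Mono_1 there. With VX765, Fibro made up 225 of 10610 cells, or 2.12% (exact 95% binomial interval 1.85 to 2.41%). With Liproxstatin it made up 141 of 12605 cells, or 1.12% (0.942 to 1.32%). The IRI long libraries at 14 d held 6.85% (IRF12) and 8.83% (IRF9) by the same name, and the control libraries 0.592 to 1.98%. The VX765 library was thus below both IRI long libraries at 14 d and above the control range, and the Liproxstatin library was within the control range. With 1 library for each inhibitor no test was run, and treatment, library and set of experiments cannot be told apart. VX765 and Liproxstatin differ in dose, so their values are set side by side only.

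Immune cells were taken here as Neutro_1, Neutro_2, Fibro, Macro, T cell, B cell and NK of the second annotation. Because this set differs from the 8 immune clusters of the first annotation, these shares cannot be set beside the earlier ones. As a share of these immune cells, Fibro was above both IRI long libraries at 14 d in the inhibitor libraries. It was 15.3% with VX765 (13.5 to 17.2%) and 17.9% with Liproxstatin (15.3 to 20.8%), against 8.35 and 12.0% in the IRI long libraries at 14 d and 5.07 to 29.5% in control. Of Fibro and Macro cells together, Fibro made up 29.7% with VX765 (26.4 to 33.1%) and 62.7% with Liproxstatin (56.0 to 69.0%). The IRI long libraries at 14 d had 42.2 and 44.9%, and control had a mean of 64.6% ± 17.1 (SD, n = 6). Macro cells were 5.02% of all cells with VX765 and 0.666% with Liproxstatin, where IRI long at 14 d had 9.39 and 10.8%.

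Position in the UMAP of the second annotation gave like values. It is no independent check on the name Fibro, since 93.1% of the Fibro cells in the 18 libraries were themselves Mono_1. A cell was counted here when over 15 of its 30 nearest cells from other libraries were Mono_1 in the first annotation. By this count 2.12% of the VX765 library and 1.08% of the Liproxstatin library lay among Mono_1 cells, against 6.81 and 8.88% in IRI long at 14 d and 0.493 to 1.91% in control. Of the cells counted, 94.7% with VX765 and 99.3% with Liproxstatin were named Fibro. In the 18 libraries with both annotations, this count found 75.0 to 97.0% of the Mono_1 cells of a library.

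**Figure D4:**
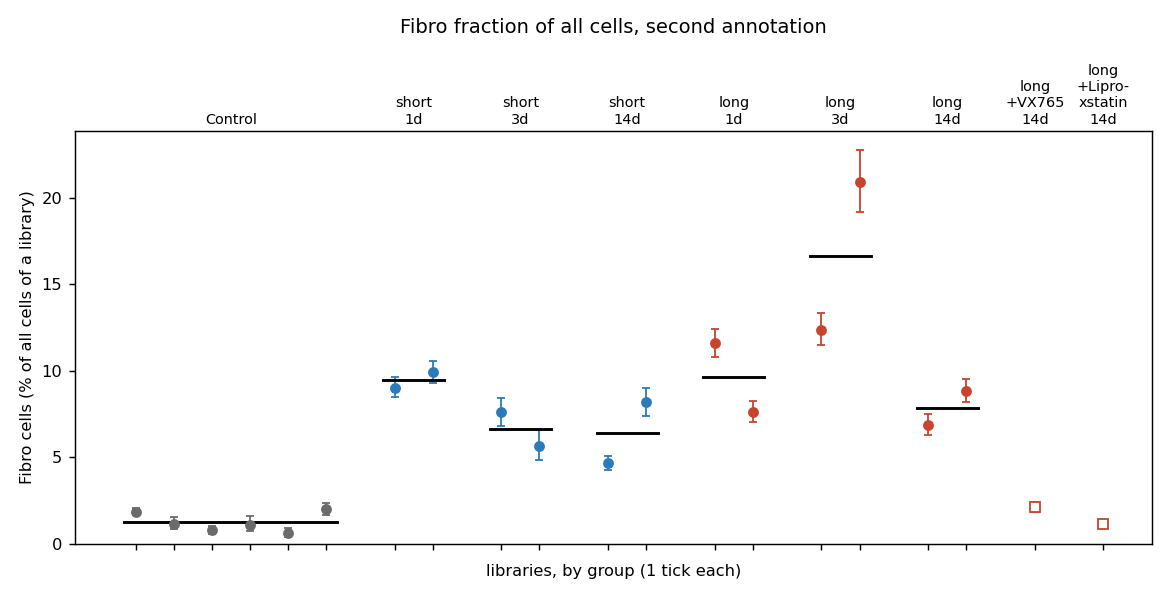
Fibro cells of the second annotation as percent of all cells in each of 20 libraries. Points are libraries, open squares are the inhibitor libraries, error bars are exact 95% binomial intervals and black lines are group means. The inhibitor libraries at 2.12 and 1.12% lie below both IRI long libraries at 14 d, at 6.85 and 8.83%.

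In the UMAP of the first annotation Mono_1 formed a compact group with few cells elsewhere. The map and the clusters come from the same transcriptomes, so position relative to other clusters is a description. Of the 30 nearest cells of a Mono_1 cell, 96.4% on average were Mono_1 and 1.19% were Macro, the only other cluster over 1%. The nearest cluster centre was that of Mono_2, at 3.71 units, and Macro lay at 7.24 (UMAP distances have no unit of measure). The median distance of a Mono_1 cell from the centre of Mono_1 was 1.39.

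A minority of Mono_1 cells lay among other clusters. For 210 cells (3.01%) fewer than 15 of the 30 nearest cells were Mono_1. Of the neighbours of these cells 31.9% were Macro, 23.4% LOH (loop of Henle) and 19.5% PT S3 (the last segment of the proximal tubule), the last named after their values were seen. Only 29.5% of these outlying cells were named Fibro in the second annotation, against 96.1% of the other 6774 Mono_1 cells. Their share was 4.03 to 20.8% of Mono_1 cells in control and 1.63 to 6.59% in IRI libraries, and it was highest in norm3 and norm4, which held 24 Mono_1 cells each. In these 2 libraries it came to 5 and 4 cells.

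Mono_1 cells of control and IRI libraries differed in position along the second UMAP axis. The median coordinate was -8.88 ± 0.252 for control, -9.31 ± 0.101 for IRI short and -9.34 ± 0.106 for IRI long (SD, n = 6). Control medians ran from -9.15 (Scl) to -8.53 (norm3), and IRI medians from -9.48 (IRF9) to -9.18 (IRF12), so that all 12 IRI libraries were below all control libraries. The differences were -0.429 for IRI short and -0.452 for IRI long (exact permutation test, p = 0.00216 each, adjusted over 12 comparisons p = 0.00866). IRI long minus IRI short was -0.0235 (exact permutation test with days kept, p = 0.750). Without the outlying cells the difference was -0.234 for IRI short and -0.265 for IRI long, with adjusted p = 0.0260 for both, in an alternative chosen after seeing the data. Without IRF7 the adjusted p for IRI long was 0.0519. The gap between the groups was narrow, between IRF12 at -9.18 and Scl at -9.15. The control library in the barcode set of the IRI libraries, norm5, was at -9.12, above Scl of the other set. Among controls, the medians were lowest in the libraries with the most Mono_1 cells, Scl with 256 and norm5 with 124. The other control libraries, with 24 to 58 Mono_1 cells, ran from -9.01 (norm2) to -8.53 (norm3). The parts of barcode set and of the number of Mono_1 cells were not tested.

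Along the first axis the medians were 5.35 ± 0.239 for control, 5.45 ± 0.0687 for IRI short and 5.50 ± 0.0584 for IRI long (SD, n = 6), and no difference passed (exact permutation test, lowest adjusted p = 0.111). Median distances from the centre, at 1.49, 1.41 and 1.41, did not differ either in any comparison that passed (adjusted p 0.431 to 0.861). Mono_1 among the 30 nearest cells was 88.4% ± 6.82 for control, 95.9% ± 1.33 for IRI short and 97.2% ± 0.830 for IRI long (SD, n = 6). The differences of 7.49 and 8.76 percentage points passed (exact permutation test, adjusted p = 0.0390 and 0.00866). Both remain a description, since the map and the cluster names come from the same transcriptomes. In the UMAP of the second annotation neither passed, at 8.76 and 9.48 percentage points (adjusted p = 0.169 for both). With 90 Mono_1 cells per library on average in control, against 490 and 584 in the IRI groups, these shares move with the number of cells, whose part was not tested. The difference for IRI short had an adjusted p of 0.100 among libraries with at least 50 Mono_1 cells, and 0.0584 to 0.0974 without any 1 of the IRI short libraries. Without IRF7, an IRI long library, the IRI short difference and its p were unchanged, and only the adjustment took it to 0.0519. The difference for IRI long also had an adjusted p of 0.0519 without IRF7.

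**Figure D5:**
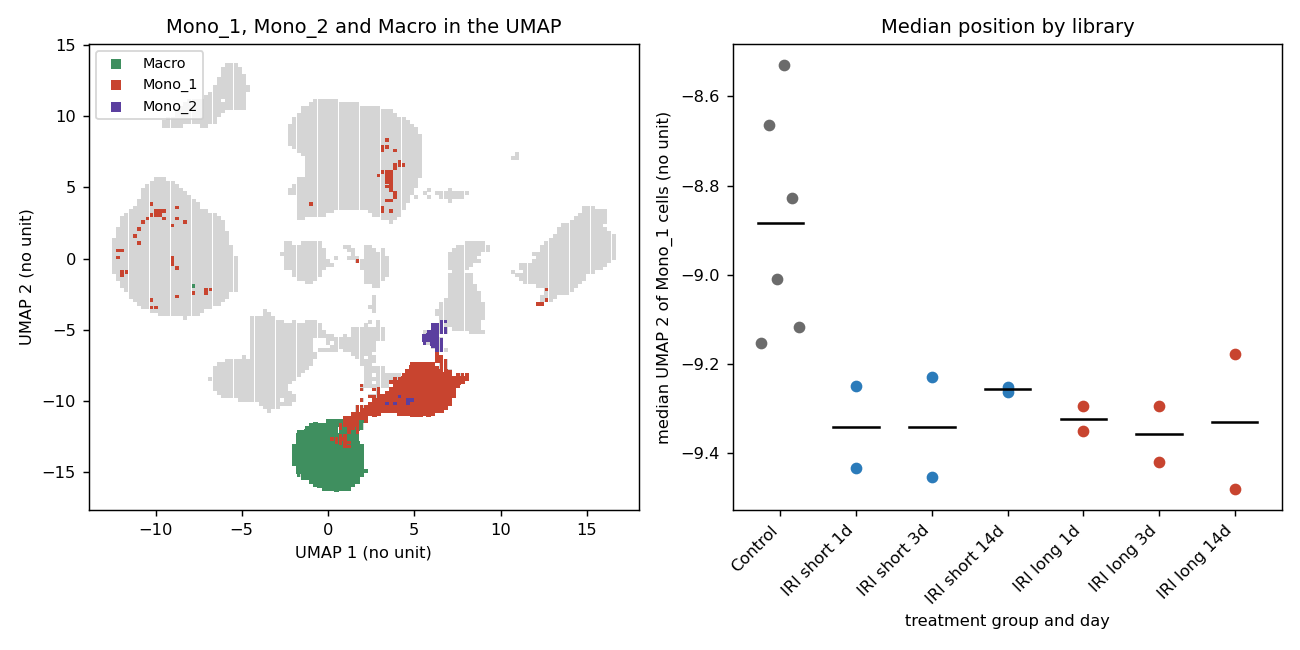
Left, UMAP of the first annotation, with bins holding any of 113579 cells in grey and bins holding Macro, Mono_1 or Mono_2 cells in colour (later layers cover earlier ones). Right, the median of the second UMAP axis over the Mono_1 cells of each library, with black lines at group means. The 12 IRI libraries lie at -9.48 to -9.18, below the 6 control libraries at -9.15 to -8.53.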

How the data were processed

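Mouse kidney single-cell RNA-seq was analysed from tables the authors deposited, with cluster, treatment group and 2 UMAP coordinates (a score without unit) per cell. The methods name the chemistry as 10X 3′ v3 and name no other. The control libraries Scl and norm1 to norm4 formed a barcode set apart from norm5 and the IRI libraries. Whether all libraries share that chemistry was not tested, so it cannot be taken as constant between control and IRI. Per the methods, the authors aligned reads with Cell Ranger to mm10 (GRCm38), filtered cells in Seurat, removed doublets with DoubletFinder, integrated libraries with LIGER, clustered with the Louvain algorithm and named clusters by hand. How the second annotation was made is not given in the sources used here for this cell number. The tables used hold no UMI counts, so depth is the number of cells per library and genes were not analysed.

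Cluster fractions were computed per library. Not every library is reported by name here, but each entered the group values and tests. Libraries were tied to groups by the labels of their cells, not to replicate numbers. The labels used do not tie libraries to mice. By the study's description 2 animals were profiled at each ischemia time and day, beside 6 controls, so each library was taken as 1 mouse. The study's own proportion test permutes cells, whereas here the library is the replicate. limma 3.58.1 (R 4.3.3) was fitted to logits of the fractions with 0.5 cells added and 1 mean per group, over 18 clusters (19 in the second annotation), with Benjamini-Hochberg adjustment at 0.05. It was tested on simulated data. Other values were compared by two-sided exact permutation tests. Tables were handled in pandas 2.3.3 and numpy 2.4.6 and tests run in scipy 1.17.1 under python 3.11.15. Position tests took libraries with at least 20 Mono_1 cells, which all 18 had.

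Named beside Mono_1 and Fibro are Mono_2, Macro, Granul_1, and clusters with at least 1% of the renamed cells or of the neighbours. Myofib, LOH, PT S3, Granul_2 and the size ranks were added after their values were seen. Members, lists and tests were chosen with earlier results of these data known. Alternatives added after seeing the files were cells with both names, Mono_1 without outlying cells, and naming by position.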

Additional observations from a re-analysis of the deposited data

How the results depend on the processing

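No paired analysis was possible because library names carry no replicate numbers, so the replicate block could not be run. Depth is the number of cells, and controls with 24 Mono_1 cells limit the shares within Mono_1. No library left out ended a call against control on the logit scale, with differences of 1.72 to 1.97 in IRI short and 2.18 to 2.42 in IRI long. Over all results without 1 library, 853 values kept direction and call, 21 lost a call, 5 gained it, 12 reversed and 9 counts moved. The cause of the changes below was not tested.

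On the arcsine scale IRI long minus IRI short was 0.0684 over days, 0.156 at 3 d and 0.0628 for Fibro, and 3 d minus 1 d in IRI long 0.0984, all now past the threshold. On the centred log-ratio scale IRI short lost its call at 3 d (0.44, adjusted p = 0.28 in limma) and 14 d (0.75, adjusted p = 0.058), and 14 d against 1 and 3 d reversed (0.081 in IRI short, 0.11 in IRI long, 0.029 for their difference). Per immune cell, the logit differences from control lost their calls, at 0.24 in IRI short (0.73, -0.081 and 0.064 at 1, 3 and 14 d) and 0.36 in IRI long (0.53, 0.75 and -0.21). IRI long minus IRI short was then -0.20 at 1 d and -0.27 at 14 d, and 6, 7 and 0 clusters passed against 12, 15 and 5. As Fibro, IRI long minus IRI short at 1 d was -0.0034. With a barcode set term only norm5 was left as a control, so the estimates were the differences from norm5 alone. No p is given for these estimates, since norm5 alone set the control level. They were 1.39 in IRI short (1.61, 1.30 and 1.27 by day) and 1.85 in IRI long (1.72, 2.31 and 1.53).

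Among monocytes and macrophages, IRI long minus IRI short lost its call with days ignored (11.3), and with Mono_1 and Macro alone it did so at 10.3, as did IRI short against control at -24.8 percentage points. The immune share became -38.0, -38.4 and -0.375 percentage points per myeloid cell, and -0.915 for IRI long minus IRI short with cells pooled. Neighbour differences lost their calls in the second UMAP (8.76 and 9.48) and, for IRI short, with at least 50 cells (3.39). Without outlying cells, an alternative chosen after seeing the data, the first UMAP axis reversed (-0.0264 and -0.00835), as did the distance in IRI long minus IRI short (0.00458).

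Without 1 library at a time, IRI long minus IRI short ran from -0.139 to 0.358 at 1 d (lowest without IRF1) and -0.0627 to 0.591 at 14 d (lowest without IRF10). The change to 14 d ran from -0.517 to 0.137 in IRI short (highest without IRF10), -0.643 to -0.321 in IRI long (highest without IRF7) and its difference between ischemia times from -0.619 to 0.0344 (highest without IRF8). Clusters passed between IRI long and IRI short numbered 2 to 5 (2 for example without IRF1, IRF3 or IRF12), and 2 to 6 in the second annotation (2 without IRF1 or IRF10). In percentage points, the ranges were 2.74 to 5.64 for IRI long minus IRI short of all cells, -0.383 to 4.52, 1.11 to 6.51 and -0.164 to 4.14 for immune cells (IRI short and IRI long against control and IRI long minus IRI short, lowest without norm4, IRF7 and IRF7), and -30.4 to -22.0, -19.2 to -10.8 and 8.95 to 13.6 for monocytes and macrophages. The share named Fibro ran from 4.15 to 9.08 and 5.95 to 10.9, neighbours from 5.61 to 8.89 and 6.89 to 10.2, the second UMAP axis from -0.506 to -0.382 and -0.0739 to 0.0269, and the distance from -0.0134 to 0.00516.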
